A study of Mus musculus with 2 samples.

Results

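The transforming growth factor beta (TGF-β) superfamily genes described here are its receptors, Smads, latent TGF-β binding proteins and ligands other than the bone morphogenetic proteins (BMPs), with Bambi, Twsg1, Smurf1 and Smurf2. They were chosen by gene symbol and not by their values, though earlier results of these data were known. Of the 24675 genes with a symbol, 47 were members. Endoglin (Eng) was left out by the same rule and is given among related genes. Affymetrix Mouse Gene 2.0 ST arrays were used to measure expression in C57Bl/6 mouse embryos at embryonic day 10.5, with no treatment or genetic change named. The dorsal sample was cut by laser from above the aorta, up to the notochord. The ventral sample was cut beneath the aorta, in the same embryos, whose number the sources used here do not give. This region, the aorta-gonad-mesonephros, is where blood stem cells arise, and the series asks what is particular to the tissue beneath the vessel. Each tissue had 1 array, both labelled biological replicate 4, so no difference below has an error, a test or a p-value.

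Ligands of this superfamily bring together a type II receptor, which is always active as a kinase, and a type I receptor, which it phosphorylates. The type I receptor then phosphorylates Smads: Smad2 and Smad3 after TGF-β, activin or nodal, and Smad1, Smad5 and Smad9 after BMPs and several growth differentiation factors. These join Smad4, enter the nucleus and act on target genes, while Smad6 and Smad7 block the chain and the Smurf ubiquitin ligases lead its proteins to degradation. In the embryonic aorta BMP signalling has been linked to the emergence of blood stem cells, and TGF-β signalling to endothelium and to vessel-wall cells.

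The members at least 2-fold apart between the tissues were Smads, a type II receptor and a Smad ubiquitin ligase, while all ligands but Tgfb2 lay at background on both arrays. Smad2 was 7.66-fold higher in ventral tissue, Bmpr2 2.27-fold higher and Smad6 at least 3.10-fold higher, while Smurf2 was 2.06-fold higher in dorsal tissue. Every other member was within 2-fold on measured values, Smad4 just so at 1.97-fold higher in ventral tissue. A level is called background here where it lay under 3.92 on the log2 scale, a mark set by the 95th percentile, over both arrays, of 1365 genes for olfactory and vomeronasal receptors. Where 1 of the arrays was under this mark the fold is a lower bound, taken against the mark, and no fold is given where both were. By this mark 7101 of all 24675 genes were above background on at least 1 array, beside 14 of the 47 members. Of the members 10 were above it on both arrays, 4 on 1 array and 33 on neither. Those 33 had values from 2.24 to 3.86 and differences from -0.61 to 0.48, and a difference between the tissues was not detectable in them at this signal. In bulk tissue, fewer cells of a type and less RNA per cell cannot be told apart, and these values do not separate them.

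**Figure D1:**
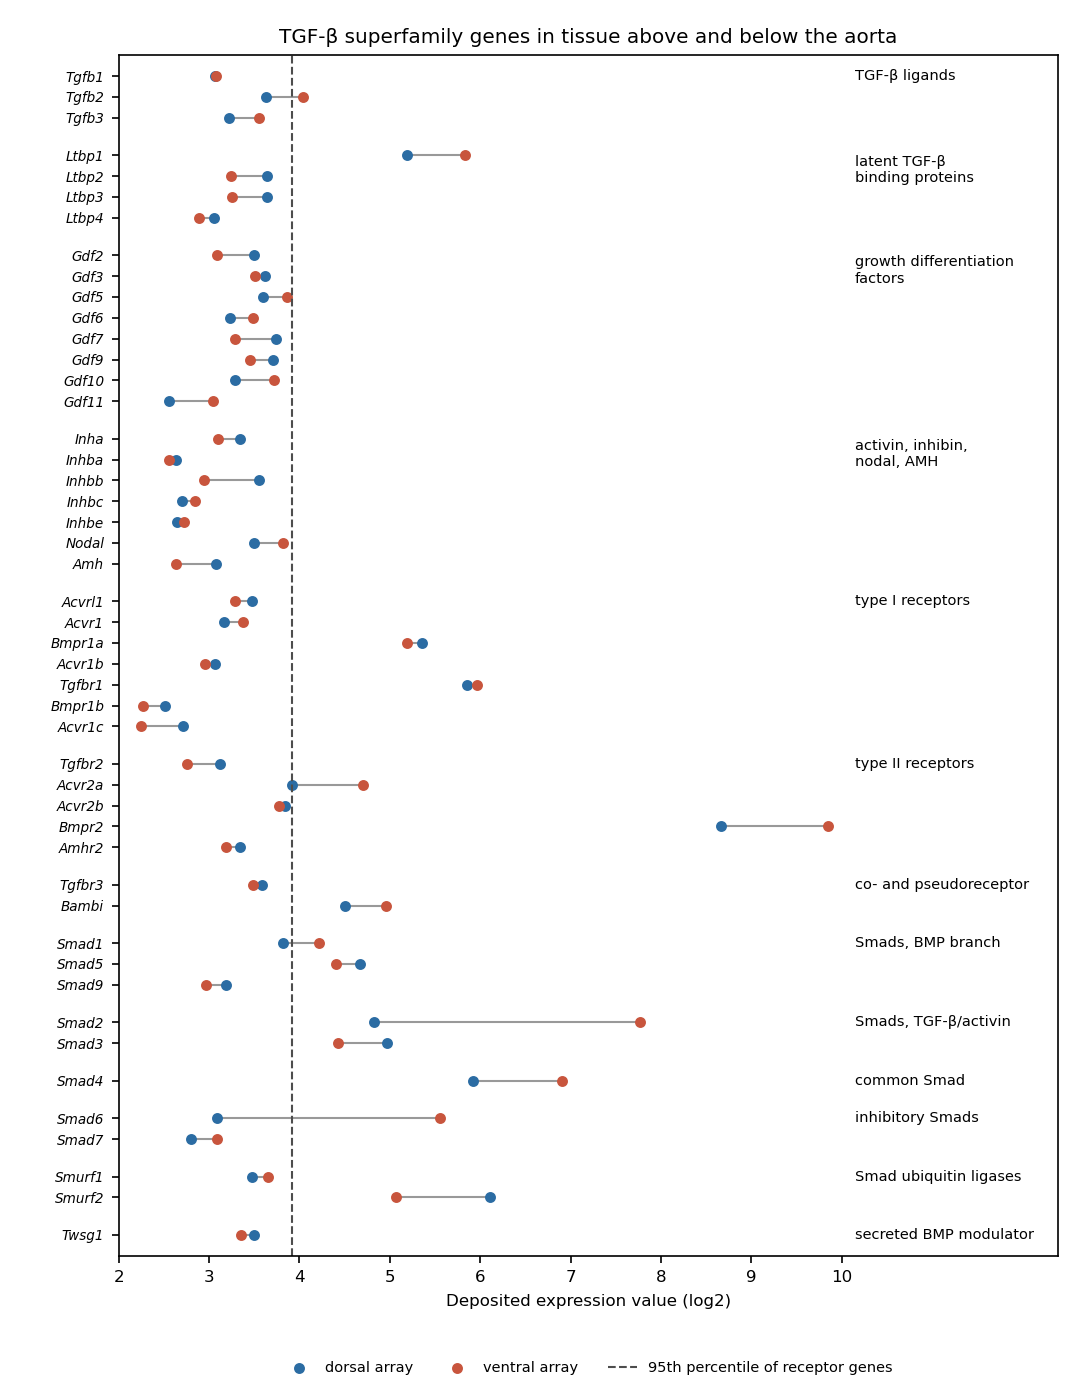
Deposited log2 expression values (horizontal axis) of the 47 members in the dorsal (blue) and ventral (red) array, grouped by role; the dashed line is the background mark of 3.92. Long lines joining the arrays are seen for Smad2, Smad6, Bmpr2, Smad4 and Smurf2, and 33 members lie left of the mark on both arrays; positions of different genes along the axis are not comparable as amounts.

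Promoter sequence is shown for the members at least 2-fold apart that the RefSeq table of promoters (GRCm38.p6) holds, so that Smad sites can be looked for beside their values. Smad2, the member with the greatest difference, had no window there. Each window runs from 250 bases before to 50 after a transcription start, 5′ to 3′ on the gene's strand. Capitals mark GTCTAGAC, the palindrome that Smad3 and Smad4 bind, GGCGCC, a palindromic GC-rich site linked to BMP Smads, and CAGAC, the core of a TGF-β response element, read on both strands and so also as GTCTG. No letters of these motifs overlapped in the windows shown.
Smad6, chr9:64022010-64022309, minus strand: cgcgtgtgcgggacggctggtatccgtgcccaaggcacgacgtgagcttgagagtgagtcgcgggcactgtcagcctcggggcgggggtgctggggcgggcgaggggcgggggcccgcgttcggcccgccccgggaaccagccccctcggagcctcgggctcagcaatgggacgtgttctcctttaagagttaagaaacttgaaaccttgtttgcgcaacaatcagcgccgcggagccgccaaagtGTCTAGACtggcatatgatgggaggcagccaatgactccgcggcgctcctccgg
Bmpr2, chr1:59764029-59764328, plus strand: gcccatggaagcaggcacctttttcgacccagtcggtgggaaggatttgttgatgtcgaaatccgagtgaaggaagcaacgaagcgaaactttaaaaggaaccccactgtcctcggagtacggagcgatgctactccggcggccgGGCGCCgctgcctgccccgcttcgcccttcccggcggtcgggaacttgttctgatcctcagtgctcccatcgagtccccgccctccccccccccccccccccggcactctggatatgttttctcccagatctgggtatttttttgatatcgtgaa
Smurf2, chr11:106920666-106920965, minus strand: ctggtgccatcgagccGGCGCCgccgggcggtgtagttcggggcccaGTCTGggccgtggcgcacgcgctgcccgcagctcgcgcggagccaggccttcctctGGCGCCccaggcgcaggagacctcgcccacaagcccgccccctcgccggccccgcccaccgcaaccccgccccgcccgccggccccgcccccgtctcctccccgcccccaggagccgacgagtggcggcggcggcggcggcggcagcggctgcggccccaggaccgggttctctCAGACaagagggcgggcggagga

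The window of Smad6, at least 3.10-fold higher in ventral tissue, held GTCTAGAC at position 247 of its 300 bases, across the transcription start. Of all 32851 windows, 70 (0.213%) held this motif, and of the 6558 windows of genes above background on at least 1 array, 14. Among the 44 member windows it was in this 1 alone. The motifs were chosen with the values known, and a link of this match to the difference of Smad6 was not tested. The window of Bmpr2, higher in ventral tissue, held GGCGCC once, and that of Smurf2, higher in dorsal tissue, held it at 2 positions together with CAGAC at 2. GGCGCC was found in 11.9% of all windows, in 22.1% of those of genes above background and in 11 of 44 member windows, which belonged to 35 of the 47 members. For members above background it was 6 of 15 windows, from 11 genes, some of them overlapping windows of 1 gene. CAGAC was found in 49.6% of all windows and in 43.2% of member windows. Members above background and within 2-fold carried these sites too. GGCGCC was in windows of Bmpr1a, Smad5 and Tgfbr1, and CAGAC in windows of Acvr2a, Ltbp1, Smad5, Tgfb2 and Tgfbr1. The windows of Smad1 and Smad3 held none of the motifs. Member windows were richer in G and C, with a median of 64.7% against 52.7% over all windows and 61% over those of genes above background. The part of base composition in these shares was not tested, and a match describes the letters in a window, not binding.

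The counts of members at least 2-fold apart were near those of all genes. Counts here and below use the measured values, so a gene counted may have a bound under 2-fold. The floor for counting was the midpoint of all genes ranked by their mean over the arrays, 3.10, which the higher value of a gene had to reach, and 36 members passed it, among 13982 genes. Of these 36, 3 (8.33%) were at least 2-fold higher below the aorta, beside 9.44% of all genes above the floor, and 1 (2.78%) above the aorta, beside 4.88%. Of the 14 members above background on at least 1 array, the same genes made up 21.4% and 7.14%, beside 17.7% and 8.46% of the 7101 genes so selected. The median difference, ventral minus dorsal, was -0.08 over the 36 members and -0.12 over all genes above the floor, and the members' median was slightly above 0, from 0.01 to 0.07, under the 5 other scalings. Over the genes above background on at least 1 array the medians were 0.43 for the 14 members and 0.03 for all 7101. Of the 14 members 10 were higher below the aorta, beside 3633 of the 7101 genes. The 4 members above background on 1 array, Smad6, Tgfb2, Smad1 and Acvr2a, all passed on the ventral array. Their ventral direction thus follows from the selection. Just past the 2-fold limit lay Bmpr2, with a difference of 1.18, and Smurf2, with -1.04. The nearest members short of it were Smad4, with 0.98, and on the dorsal side Inhbb, with -0.61 and both of its values at background.

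Genomic span moved with the direction of difference across all genes, though not as a steady trend. Among genes above background on at least 1 array, the median difference was -0.17 for the 2615 genes spanning less than 10 kb. It was 0.08 for the 2932 genes of 10 to 50 kb, 0.33 for the 1200 of 50 to 150 kb and 0.21 for the 354 of longer span. Of the 14 members above background, 11 fell in the class of 50 to 150 kb. The median span was 78.8 kb for these 14 against 16.8 kb for all such genes. In the class of 50 to 150 kb 24% of genes were at least 2-fold higher below the aorta and 5.42% above it, beside 27.3% and 9.09% of the 11 members. With a smooth trend on span subtracted, an alternative chosen after seeing the data, the same 4 members remained at least 2-fold apart and Smad2 stood at 2.90 on the log2 scale. The part of span in the single differences was otherwise not tested.

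Smad2, which carries TGF-β, activin and nodal signals, read 4.83 on the dorsal and 7.77 on the ventral array. Both values were above background, and of the 13982 genes above the floor 133 had a greater ventral excess. Its close relative Smad3, activated by the same receptors, read 4.97 on the dorsal and 4.43 on the ventral array, 1.46-fold higher in the dorsal piece. The pair thus differed between the tissues in opposite directions, by 2.94 and -0.55, the latter within 2-fold. Smad4, the shared partner of all receptor-activated Smads, was measured at 5.92 and 6.90. It passed 2-fold when differences were centred on the median of genes above the floor, which shifts each by 0.12, and was 0.67 on the log2 scale after quantile normalization of both columns. Measured against the receptor genes' 99th percentile, 5.48, the Smad2 fold became a bound of at least 4.88, since its dorsal value lay between the marks. Both values of Smad3 lay under that percentile, so Smad3 has no fold there.

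All 3 Smads of the BMP branch were within 2-fold. Smad1 read 3.82 on the dorsal and 4.22 on the ventral array, at least 1.23-fold higher, with the dorsal value just under the mark. Smad5 went the other way, at 4.67 and 4.41, a 1.20-fold difference. Smad9 lay under the mark on both arrays, at 3.19 and 2.97.

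Of the inhibitory Smads, Smad6, which acts mainly on the BMP branch and is itself switched on by BMP signals, read 3.09 on the dorsal and 5.55 on the ventral array. The dorsal value was background, and its promoter window is the one with the GTCTAGAC palindrome. Of the genes above the floor, 234 had a greater ventral excess. Against the 99th percentile of the receptor genes the bound fell to at least 1.05-fold, since the ventral value lay close to that stricter mark. Smad7, which blocks both branches, lay under the mark on both arrays, at 2.80 and 3.09. Smurf2, a HECT-type ubiquitin ligase of Smads and receptors, read 6.11 on the dorsal and 5.07 on the ventral array. It came below 2-fold when differences were centred on the median of genes above the floor, to -0.92, or on that of the receptor genes, to -0.94, and was at least 1.54-fold higher above the aorta against the stricter mark. Smurf1, its relative, lay under the mark on both arrays, at 3.48 and 3.65. Twsg1, a secreted protein that binds BMPs together with chordin, was at background as well, at 3.50 and 3.35.

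**Figure D2:**
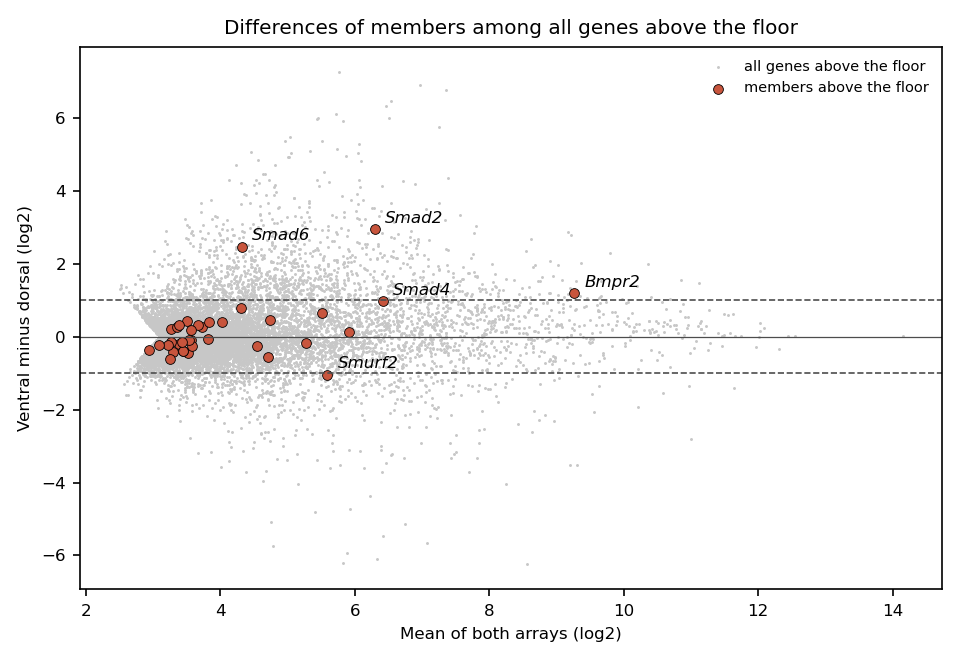
Difference between the arrays (ventral minus dorsal, log2) against their mean (log2) for the 13982 genes above the floor (grey) and the 36 members among them (red); dashed lines mark 2-fold. Smad2 and Smad6 lie well above the upper line, Bmpr2 above it, Smad4 just under it and Smurf2 just under the lower line, while most members lie in the dense band near 0.

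Among type II receptors, Bmpr2, the BMP type II receptor, read 8.67 on the dorsal and 9.85 on the ventral array. Both values lay above the stricter mark, so the 2.27-fold difference is no bound. It came below 2-fold after quantile normalization, at 0.98 on the log2 scale, and after a loess on level, at 0.91. Acvr2a, an activin receptor that also takes BMPs, was measured at 3.92 and 4.70, with the dorsal value just under the mark, at least 1.72-fold higher in ventral tissue. Its relative Acvr2b was at background at 3.84 and 3.77. Tgfbr2, the type II receptor that binds TGF-β itself, lay under the mark on both arrays, at 3.12 and 2.76. Amhr2, the receptor of anti-Müllerian hormone, was likewise there at 3.34 and 3.19.

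Both type I receptors above background were nearly equal in the tissues. Tgfbr1, the type I receptor for TGF-β, read 5.85 on the dorsal and 5.97 on the ventral array, a 1.08-fold difference. Its sign turned after quantile normalization, to -0.18, and after the loess on level, to -0.02. Bmpr1a, a type I BMP receptor, was measured at 5.36 and 5.19, 1.13-fold higher in dorsal tissue. The other 5 type I receptors were background on both arrays, between 2.24 and 3.48. They were Acvrl1, the endothelial receptor of the family, at 3.48 and 3.28, Acvr1, a BMP receptor, at 3.16 and 3.37, the activin receptors Acvr1b and Acvr1c, and Bmpr1b. Of the receptors that do not signal alone, Bambi, a decoy receptor without a kinase, read 4.50 on the dorsal and 4.96 on the ventral array, 1.38-fold higher. Tgfbr3, or betaglycan, which presents TGF-β to its receptors, was background at 3.58 and 3.48.

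Of the ligands only Tgfb2 was above the mark, and on the ventral array alone, at 4.04 against 3.63, a bound of at least 1.09-fold. Tgfb1 read 3.07 on the dorsal and 3.08 on the ventral array and Tgfb3 read 3.22 and 3.55, all background. Ltbp1, which holds latent TGF-β in the matrix, was the single member of its family of 4 above the mark, at 5.19 and 5.84, 1.56-fold higher in ventral tissue. Ltbp2, Ltbp3 and Ltbp4 were background, from 2.88 to 3.64, each slightly higher on the dorsal array. All 8 growth differentiation factors measured were background on both arrays, from 2.56 to 3.86. They were Gdf2, Gdf3, Gdf5, Gdf6, Gdf7, Gdf9, Gdf10 and Gdf11, with 4 higher on each side. Gdf5, at 3.60 on the dorsal and 3.86 on the ventral array, lay just under the mark on the latter. The 7 ligands of the activin, inhibin, nodal and anti-Müllerian hormone group, Inha, Inhba, Inhbb, Inhbc, Inhbe, Nodal and Amh, were also background throughout, from 2.55 to 3.82. Nodal, an inducer of mesoderm in the early embryo, was measured at 3.50 and 3.82, and Inhbb, a subunit of activin B, at 3.55 and 2.94. Gdf1 and Gdf15 were not analysed here.

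**Figure D3:**
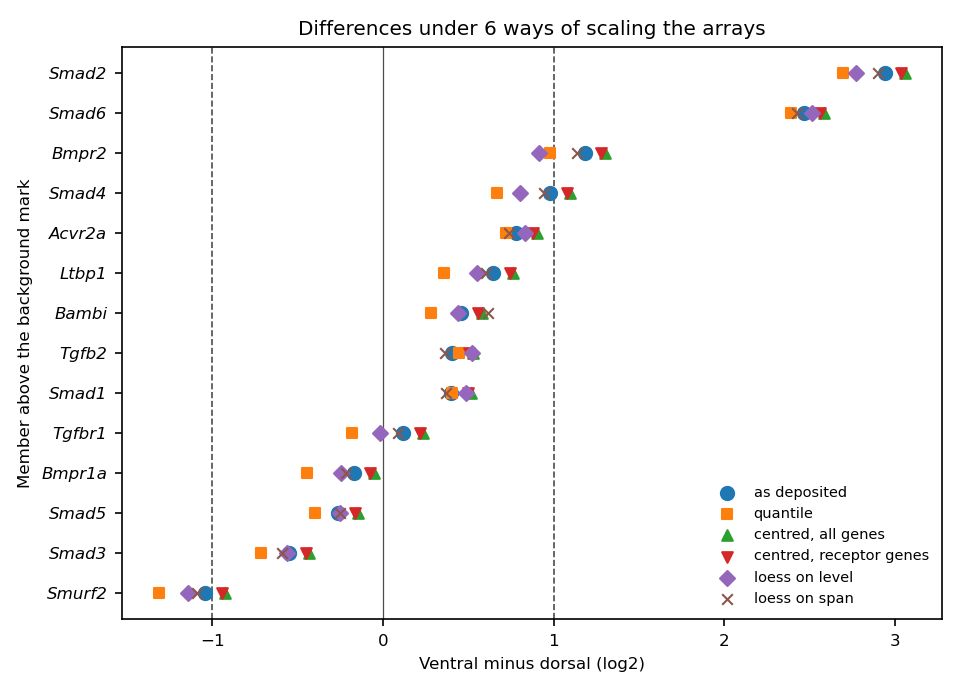
Difference between the arrays (ventral minus dorsal, log2, horizontal axis) of the 14 members above background on at least 1 array, as deposited and under 5 other ways of scaling, with 2-fold as dashed lines. Smad2 and Smad6 stay beyond 2-fold under all 6, Bmpr2 and Smurf2 under 4, and Tgfbr1 alone changes sign.

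Other genes of the pathway, in lists given by role, likewise split between the tissues. Of 11 TGF-β activating integrins and proteases above the floor, on measured values 3 were higher by 2-fold below the aorta and 0 above it, beside the 9.44% and 4.88% of all genes above the floor, with a list median of 0.02. They were Itgav, an integrin subunit that pulls TGF-β out of its latent complex, at 4.44 on the dorsal and 5.56 on the ventral array, its partner Itgb1, at 6.49 and 7.59, and the membrane protease Mmp14, at 4.46 and 5.85. After quantile normalization the list had 1 such gene. Its members Itgb3, Itgb6, Itgb8, Bmp1, Mmp2, Mmp9 and Pcsk6 were background on both arrays. Of 10 secreted inhibitors and matrix partners, Fstl1, a follistatin-like protein that binds BMPs, was the single gene at least 2-fold apart, 2.18-fold higher above the aorta at 7.24 against 6.11, and the list median was -0.08. Bgn, or biglycan, a matrix proteoglycan, was measured at 4.91 and 5.77, and Fbn2, a fibrillin that anchors latent complexes, at 4.19 and 4.52. Fst, the activin antagonist follistatin, was background at 3.25 and 3.03.

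Accessory receptors had 1 of 7 genes at least 2-fold apart, and a median of 0.12. Of all genes above the floor, 9.44% were higher by 2-fold below the aorta and 4.88% above it. The 1 was Rgma, a BMP co-receptor, 2.24-fold higher above the aorta at 5.26 against 4.10. Neo1, which binds the Rgm proteins, went the other way, at 6.67 on the dorsal and 7.48 on the ventral array, within 2-fold. Nrp1 was measured at 3.40 and 4.12. Eng, the endothelial co-receptor excluded from the members, read 4.09 on the dorsal and 3.53 on the ventral array, at least 1.13-fold higher in the dorsal piece.

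Among proteins that act on the Smads inside the cell, 14 transport factors, cofactors and corepressors held 1 gene at least 2-fold higher on each side, with a median of 0.12. For this list and the next, the shares of all genes above the floor were 9.44% below the aorta and 4.88% above it. Trim33, a ubiquitin ligase that acts on Smad4 and pairs with Smad2 and Smad3, was 3.20-fold higher below the aorta, at 6.06 against 4.38. Fkbp1a, which keeps type I receptors inactive, was 2.71-fold higher above the aorta, at 6.49 against 5.06. Zfyve16, an endosomal protein that binds Smad4, was measured at 3.61 and 4.29. The 13 genes of Smad and receptor turnover also held 1 on each side, with a median of -0.09. Usp15, a deubiquitinase of receptor-activated Smads and of Tgfbr1, was 3.13-fold higher below the aorta, at 7.39 against 5.74. Ppm1a, a phosphatase of Smad2 and Smad3, was 2.20-fold higher above the aorta, at 5.75 against 4.61. Stub1, a chaperone-linked ubiquitin ligase, read 3.42 on the dorsal and 4.31 on the ventral array, within 2-fold.

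Genes known to answer TGF-β or activin did not share a direction. Of 13 above the floor, 2 were higher by 2-fold below the aorta on measured values, Acta2 and Tgfbi, and 2 above it, Snai2 and Ccn2, with a median of -0.13. The first count was 1 after quantile normalization, and the second was 1 with differences centred on the median of genes above the floor or of receptor genes, or with the trend on span subtracted. Snai2, a transcription factor of epithelial-to-mesenchymal transition, read 7.80 on the dorsal and 6.17 on the ventral array. Ccn2, or connective tissue growth factor, was measured at 5.04 and 4.01, and was added to the named genes after its values were seen. Acta2 is smooth muscle actin, and Tgfbi, a matrix protein, had a dorsal value at background, so that its fold is a bound of at least 1.71. Beside this list and the next, all genes above the floor had 9.44% higher by 2-fold below the aorta and 4.88% above it. The median of all those genes was -0.12. Of 12 BMP target genes, 1 was higher by 2-fold below the aorta on measured values and 2 above it, with a median of -0.23. The 2 were Id3 and Hey1, by 7.55-fold and 3.30-fold, and the 1 was Dlx5, a homeobox gene, at 3.06 on the dorsal and 4.16 on the ventral array, a bound of at least 1.18-fold. Id1, a BMP target in many cells, read 4.01 on the dorsal and 4.78 on the ventral array, 1.71-fold higher. Of the BMP targets named here, Smad6, at least 3.10-fold higher in ventral tissue, stood beside Id1 and Dlx5 and opposite Id3 and Hey1. The other genes of the list above background, Id2, Id4, Msx1, Atoh8 and Sox9, were within 2-fold. Id2, Msx1 and Atoh8 were higher in ventral tissue and Id4 and Sox9 in dorsal tissue.

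**Figure D4:**
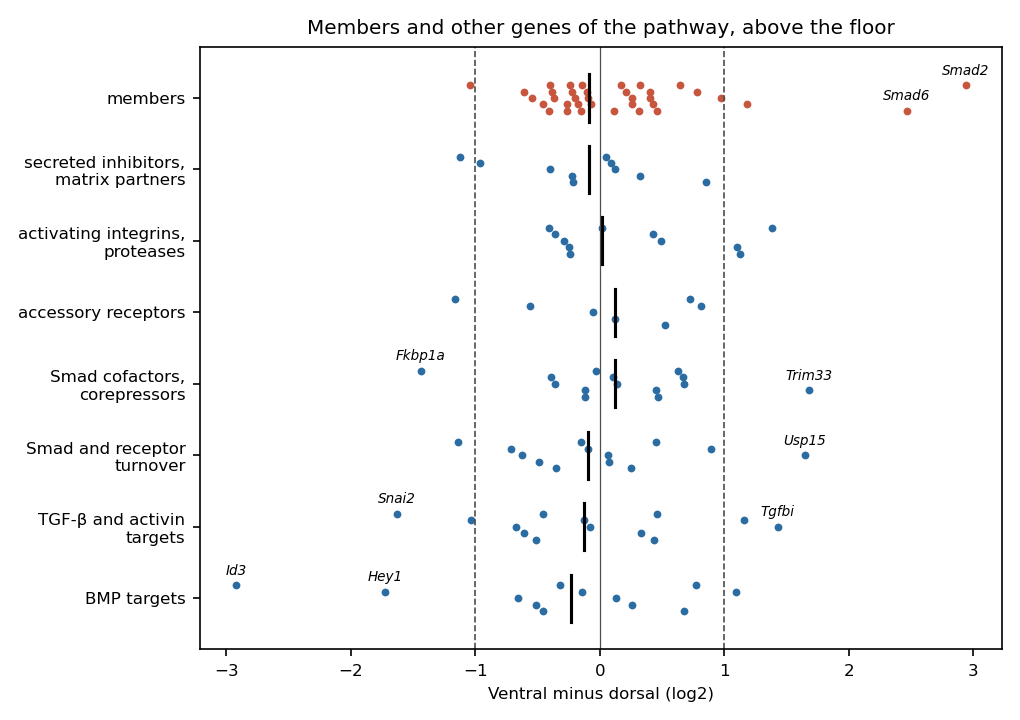
Difference between the arrays (ventral minus dorsal, log2) of the 36 members (red) and of genes in 7 other lists of the pathway (blue), above the floor; each point is a gene, black bars are list medians and dashed lines mark 2-fold. List medians lie between -0.23 and 0.12, with genes beyond 2-fold on both sides in 4 of the 7 lists.

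Cell type markers leaned to 1 tissue in some lists, while those of other lists did not or were mostly background. They are counted on measured values among genes above the floor, beside the 9.44% and 4.88% of all such genes, and summed as signal, 2 raised to each value and added over all genes of the list measured. Coelomic epithelium and gonadal ridge genes had 4 of 10 higher by 2-fold below the aorta, 2 of them also by their fold or bound, with sums of 109.0 above and 329 below it, and Msln, Nr5a1 and Upk3b at background. Endothelial markers had 3 of 7, and 2 by fold or bound, with sums of 109.4 and 247, and Tek, Tie1, Esam and Egfl7 at background on both arrays. Smooth muscle and pericyte markers had 4 of 7, and 3 by fold or bound, with sums of 111 and 320, and Pdgfrb, Cspg4 and Myh11 at background. Acta2, 1 of those 4, and Tagln are also in the list of TGF-β and activin targets above. Sclerotome and notochord markers had 5 of 9 higher by 2-fold above the aorta, and 3 by fold or bound, with sums of 292 and 129, and Pax1, Foxa2 and Nkx3-2 at background. Neural markers had 2 of 5 higher below the aorta, 1 of them by fold or bound, and 1 above it, with Sox2, Sox10, Foxd3 and Elavl4 at background. Their sums of 144 and 364 rested on Nefm, and without it were 100.4 and 73.2. Of 5 erythroid markers 1, Klf1, was higher by 2-fold above the aorta, and the sums, 11421 and 10647, rested on globins. Of the macrophage markers 5 of 6, and of the gut and nephric markers 7 of 8, were background. The part of these cell types in the differences of Smad2, Smad6, Bmpr2 and Smurf2 was not tested.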

How the data were processed

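The file deposited by the authors gives a log2 value for each gene on each array, made with Affymetrix Expression Console and RMA (background correction, quantile normalization and summary of probes), per the submitters' processing notes. Their versions, the genome build, the probe annotation and which arrays were normalized as a set were not given in the sources used here. Per the labels' protocols, 20 µm sections were cut and 200 to 1000 pg of RNA amplified before labelling, which can lose or inflate transcripts at random.

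Of 25429 features, 24675 had 1 symbol in the platform annotation and were used, and 754 had none. Values ran from 1.45 to 14.1 in the dorsal and from 1.47 to 14.2 in the ventral array, and 5975 and 5884 genes exceeded the background mark. The number of arrays limits the precision. Differences are ventral minus dorsal, on the deposited values. No test was possible with 1 array a tissue, so genes were called by size, 2-fold. An alternative counted as moving a value where it shifted it by at least 0.24, the robust SD of the receptor genes' differences.

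The members and lists were chosen with earlier results of these data known. Every member was named, with values for each above background; of each pathway list, up to 3 genes above background with the greatest differences were named, and Eng, Id1, Id3, Fst and Tgfbi whatever their values. The search motifs were chosen with the values known. Planned protein comparisons were not run. The steps were tested on simulated data. Python 3.11.15, numpy 2.4.6, pandas 2.3.3, statsmodels 0.14.6 and matplotlib 3.10.9 were used.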

Additional observations from a re-analysis of the deposited data

How the results depend on the processing

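The 3 members at least 2-fold higher below the aorta became 6 of 36 at a 1.5-fold limit, with Acvr2a, Ltbp1 and Smad4 added. At that limit 2286 of the 13982 genes above the floor were higher below the aorta and 2099 above it. The 1 higher in dorsal tissue became 2 at 1.5-fold, with Inhbb, and 0 at 3-fold or with differences centred on the median of genes above the floor or of receptor genes. Among all genes above the floor, 682 were higher in dorsal tissue at 2-fold and 228 at 3-fold. With those centrings the count at 2-fold was 527 and 547, in that order. The members' median of -0.08 became 0.17 as a mean. With the floor raised to the 95th percentile of receptor genes it was 0.43, beside 0.03 for all genes so selected. At their 99th, which 7 members reached, it was 0.98, the value of Smad4, and no median over all genes is given there. Of these members, Smad2, Smad6 and Ltbp1 reached that mark on the ventral array alone and Smurf2 on the dorsal array alone. Of 70 member differences under other scalings 63 moved by less than 0.24, and of 105 pathway list values 94 kept within that limit or, for counts, within 1.5 times. With the stricter mark 7 members have a fold, and those of Smad2, Smad6, Smurf2 and Ltbp1 moved. The cause of these shifts was not tested. No paired analysis was possible because each tissue has a single array, both carrying the same replicate number.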
